A study of Mus musculus with 10 samples.

Results

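The organic anion, organic cation and ABC drug transporters were followed in the kidney cortex of mice with aristolochic acid nephropathy (AAN). The members are every gene of the deposited values whose mouse symbol begins with Slc22a, Slco, Slc47a, Abcb, Abcc or Abcg followed by a number. There were 63 of them among 21792 genes, namely 24 of Slc22a, 2 of Slc47a, 12 of Slco, 9 of Abcb, 10 of Abcc and 6 of Abcg. RNA was measured in 4 sham mice and 6 AAN mice, 1 mouse per library, all male, wild type, of the C57BL/6 strain and aged 8 weeks at the start. AAN mice received aristolochic acid as 1 intraperitoneal injection of 5 mg/kg, sham mice received the same amount of PBS, and the renal cortex was taken at day 28 in both groups. The mice carry tags (sham B607, B634, B636 and H249, and AAN A483, B614, B630, B639, B642 and B666), no batch is given, and the tissue was whole cortex with no sort. In such tissue, fewer cells of a type and less RNA per cell cannot be told apart.

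The proximal tubule clears drugs, toxins and metabolic waste by moving them from blood to urine. On the blood side, the organic anion transporters Oat1 (Slc22a6) and Oat3 (Slc22a8) take up anions, aristolochic acid among them, in exchange for dicarboxylates, while Oct2 (Slc22a2) takes up cations. On the urine side, the proton exchanger Mate1 (Slc47a1) lets cations out, and ATP-driven pumps such as Mrp2 (Abcc2), Mrp4 (Abcc4), P-glycoprotein (Abcb1a and Abcb1b) and Bcrp (Abcg2) expel drugs and conjugates.

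Library depth was 15.8 to 17.5 M fragments in the sham group and 13.4 to 16.5 M in the AAN group. Levels are in FPKM, the deposited measure of fragments scaled to gene length and library size, and log2 fold changes (AAN minus sham) are on log2(FPKM + 0.1). The tissue carried its proximal tubule genes, and the 10 genes of the proximal tubule list summed to 3316 to 5813 FPKM in the sham group and 978 to 3059 FPKM in AAN mice. In AAN mice, 4 of 4 macrophage genes, 3 of 3 leukocyte genes, 4 of 4 fibroblast genes and 4 of 4 injured tubule genes (Havcr1, Lcn2, Krt20 and Vcam1) were higher, whereas 0 of the 12 genes listed for podocytes, endothelium, thick limb and the distal nephron passed the limits used for the members. Macrophage genes summed to 21.5 to 32.7 FPKM in the sham group and 308 to 1113 FPKM in AAN mice. The share of all FPKM held by mitochondrial transcripts was 39.5% to 61.4% in the sham group and 21.4% to 55.0% in the AAN group. Their part in the changes of the transporters was not tested. AAN mouse B614 was the AAN mouse closest to the sham group, with 3059 FPKM of proximal tubule genes (978 to 1464 FPKM in the other 5) and 308 FPKM of macrophage genes (689 to 1113 FPKM in the other 5).

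In the sham cortex, the carriers were dominated by Slc22a. Members of Slc22a made up 85.8% to 87.4% of the summed FPKM of the 63 genes. The urate exchanger Urat1 (Slc22a12) had the highest level of any member in 4 of 4 sham mice, from 336 to 789 FPKM. Slc22a8 and Slc22a6 followed, and their ranges (261 to 393 and 229.8 to 409 FPKM) overlapped each other and that of Slc22a12. Further down were Slc22a18 (202 to 242 FPKM), which overlapped Slc22a6, then Slc22a2 (148 to 202 FPKM), whose highest value lay just below the lowest of Slc22a18, and Slc47a1 (112 to 145 FPKM), just below the range of Slc22a2. In contrast, liver genes were near 0, with Alb, Apoa1 and Cyp3a11 summing to 2.06 to 4.29 FPKM. The bile salt export pump Abcb11 was listed at 0 in 4 of 4 sham mice, and the hepatic carrier Slco1b2 reached 0.0204 FPKM at most, below the 0.0455 FPKM that 3 fragments would give in the shallowest library.

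In AAN, the summed FPKM of the members was 420.1 to 506 in 5 mice and 1229 in B614, against 1736 to 2860 in sham mice. The composition changed as well. Slc22a6 and Slc22a8 together made up 22.9% to 30.8% of the sum in the sham group and 3.67% to 9.44% in 5 AAN mice, with 19.3% in B614. The member with the highest level was Slc47a1 in B630 and still Slc22a12 in B614.

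Of the 63 members, 48 had a mean of at least 0.1 FPKM and were tested with limma. Between AAN and sham, 11 were higher and 14 were lower, counting changes of 2-fold or more whose adjusted p did not exceed 0.05. Over all 17129 genes tested, 35.8% were higher and 3.43% were lower by the same limits. The median log2 fold change was -0.41 over the 48 members and 0.75 over all genes tested. Levels of the groups did not overlap for 24 of the 48 members, while this held for 43.6% of all genes. The 14 lower members were 11 of 21 tested Slc22a, 1 of 1 tested Slc47a and 2 of 8 tested Slco, and 0 of the 18 tested ABC genes were lower by these limits on the deposited scale. The 11 higher members were 2 Slc22a, 3 Slco, 4 Abcc and 2 Abcg. Rescaling changed this balance. With median of ratios the split was 7 higher and 27 lower, and with quantile normalization 5 higher and 26 lower, where the medians of all genes were 0.06 and -0.13. All 14 lower members stayed lower under both. The 0 for ABC genes ended under both, as 6 of the 18 (Abcb6, Abcb8, Abcc2, Abcc6, Abcc9 and Abcg2) were then lower and 3 (Abcc3, Abcg1 and Abcg3) higher.

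**Figure D1:**
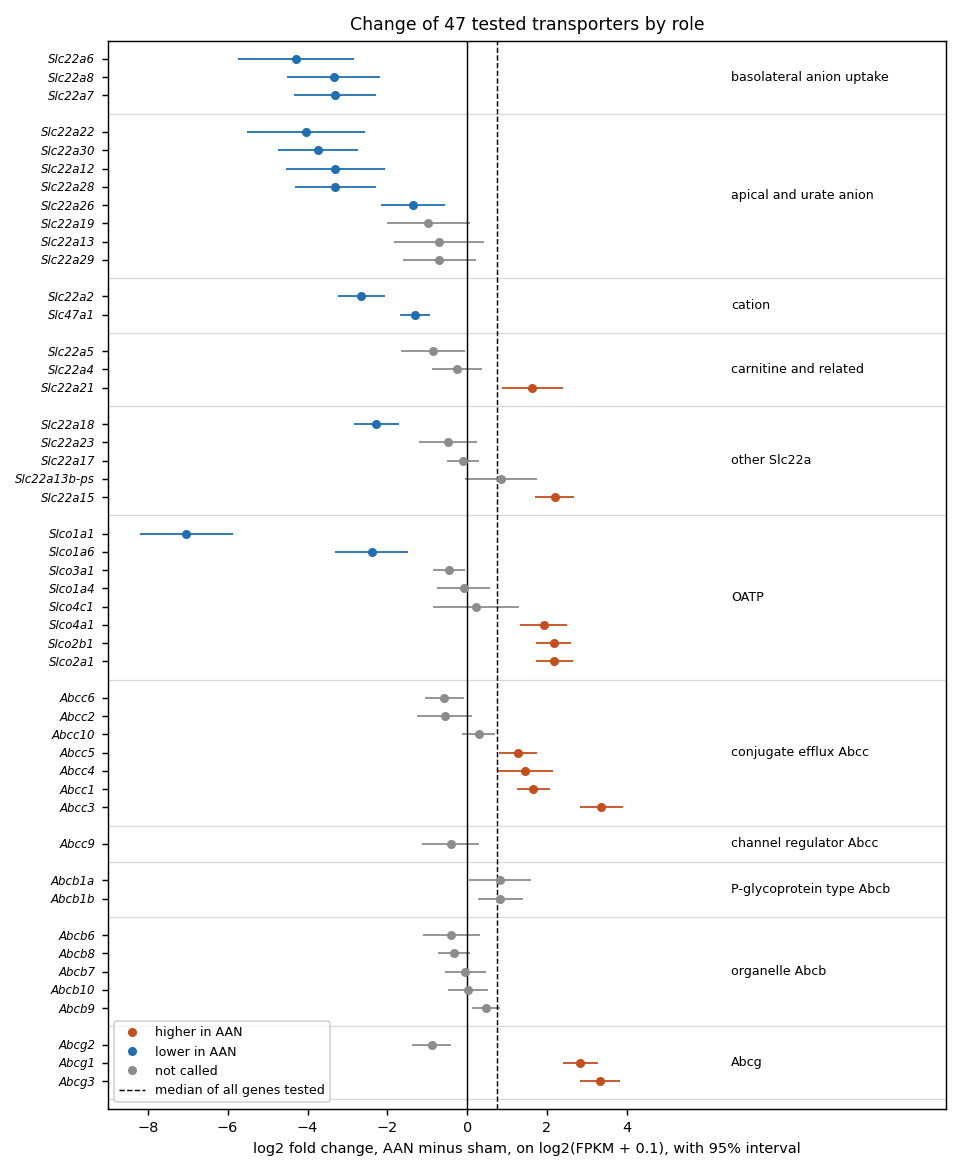
Log2 fold change (AAN minus sham, on log2(FPKM + 0.1), horizontal axis) of 47 tested transporters, ordered by role, with 95% intervals. Orange points are the 11 higher members, blue points 13 of the lower members and grey points the 23 that did not pass the limits, and the dashed line marks the median of all genes tested (0.75). Blue points lie among the anion and cation carriers and also at Slc22a18, Slco1a1 and Slco1a6. Orange points lie among the Abcc, Abcg and Slco genes and also at Slc22a15 and Slc22a21.

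Of the carriers that bring anions into the tubule cell from blood, 3 of 3 members were lower. Slc22a6 was at 409, 229.8, 259.5 and 251 FPKM in sham mice, and its lowest, median and highest values in AAN mice were 7.15, 10.1 and 117 FPKM. The groups did not overlap, and the highest AAN value was that of B614, with the other 5 mice at 7.15 to 13.7 FPKM. Its log2 fold change was -4.28 ± 0.67 (SE, n = 4 and 6, limma adjusted p = 0.000186), and it was -4.89 without B614. Slc22a8 was at 261, 271, 393 and 287 FPKM in sham mice and at 8.29, 28.2 and 120.0 FPKM (lowest, median and highest) in AAN mice. Again B614 held the highest AAN value and A483 the lowest. Its log2 fold change was -3.35 ± 0.54 (adjusted p = 0.000239). Oat2 (Slc22a7), a carrier of cyclic nucleotides and other anions, was at 32.9, 37.4, 19.0 and 34.6 FPKM in sham mice and at 1.37, 2.56 and 11.4 FPKM in AAN mice, a log2 fold change of -3.31 ± 0.47 (adjusted p = 9.83e-05). Here B614, at 2.35 FPKM, was among the low AAN mice, and the high value was that of B630. The 3 carriers summed to 538 to 703 FPKM in sham mice and to 17.3 to 51.4 FPKM in the AAN mice other than B614, which had 239 FPKM.

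Slc22a8 and Slc22a6 are neighbours on the plus strand of chromosome 19 (GRCm38, chr19:8591254-8611835 and chr19:8618039-8628299), 6203 bases apart. For Slc22a6 minus Slc22a8 within each mouse, on log2(FPKM + 0.1), the mean was -0.09 in the sham group and -1.03 in the AAN group, a change of -0.93 ± 0.44 (SE) that did not pass (exact permutation p = 0.10, two-sided, adjusted 0.12 by Benjamini-Hochberg over 6 pairs of members).

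The remaining organic anion carriers of Slc22a had 5 of 8 tested members lower and 0 higher. Slc22a12, which reabsorbs urate from the tubule lumen, was at 789, 336, 434 and 559 FPKM in sham mice and at 23.6, 41.6 and 270.0 FPKM (lowest, median and highest) in AAN mice. The highest AAN value was that of B614 and lay below the lowest sham value, and the log2 fold change was -3.31 ± 0.57 (adjusted p = 0.000377). Slc22a22, a prostaglandin carrier on chromosome 15, was at 36.1, 19.2, 24.3 and 29.6 FPKM in sham mice and at 0.503, 1.12 and 13.1 FPKM in AAN mice, a log2 fold change of -4.03 ± 0.68 (adjusted p = 0.000326). Once more the 13.1 FPKM was B614, while the other 5 AAN mice were at or below 1.5 FPKM.

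Slc22a28 and Slc22a30 belong to a row of related anion carriers on the minus strand of chromosome 19 (chr19:8062209-8131982 and chr19:8335371-8405111). Slc22a28 was at 78.9, 50.1, 64.1 and 74.6 FPKM in sham mice and at 4.10, 5.03 and 28.5 FPKM in AAN mice (log2 fold change -3.30 ± 0.46, adjusted p = 8.21e-05). Slc22a30 was at 28.0, 21.9, 25.4 and 25.6 FPKM in sham mice and at 0.892, 1.4 and 7.54 FPKM in AAN mice (log2 fold change -3.74 ± 0.46, adjusted p = 3.12e-05). The 2 genes share sequence. Of the 100-base windows of their exons, 37.0% of Slc22a28 and 21.1% of Slc22a30 occur in another gene, mostly in each other, so fragments could be split between them. Slc22a26, another gene of the row, was lower as well (0.706 to 3.29 FPKM in sham mice and 0.356 to 0.585 FPKM in AAN mice, log2 fold change -1.36 ± 0.37, adjusted p = 0.0069). This call was lost without sham mouse H249 (-0.96), with B tags alone (-0.97) and with a pseudocount of 1 (-0.75).

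The other 3 anion carriers of this set, Slc22a13, Slc22a19 and Slc22a29, did not pass the limits on the deposited scale. Slc22a13, an exchanger of urate and nicotinate, was at 27.7 FPKM in sham mouse H249 and at 3.68 to 9.06 FPKM in the other 3 sham mice, and at 12.7 FPKM in AAN mouse B630 with 2.78 to 6.44 FPKM in the other 5 (log2 fold change -0.71 ± 0.52, adjusted p = 0.247). Slc22a19 was likewise highest in H249 among sham mice (12 FPKM) and in B630 among AAN mice (3.57 FPKM). So was Slco4c1, a carrier of digoxin and thyroid hormone, at 2.95 and 2.31 FPKM. In these 3 genes B614 was within the range of the other AAN mice or below it. In contrast, Slc22a29 was highest in B614 among AAN mice (2.13 FPKM, with 0.286 to 0.966 FPKM in the other 5), and it was at 0.861 to 2.10 FPKM in sham mice. With median of ratios Slc22a13, Slc22a19 and Slc22a29 were lower (log2 fold changes -1.47, -1.71 and -1.39), with quantile normalization Slc22a19 and Slc22a29 (-1.88 and -1.85), and without sham mouse B636 Slc22a19 (-1.31). The genes of this paragraph were chosen after their values were seen, apart from Slco4c1, and 21.8% of the windows of Slc22a13 occur in another gene, mostly its neighbouring pseudogene.

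**Figure D2:**
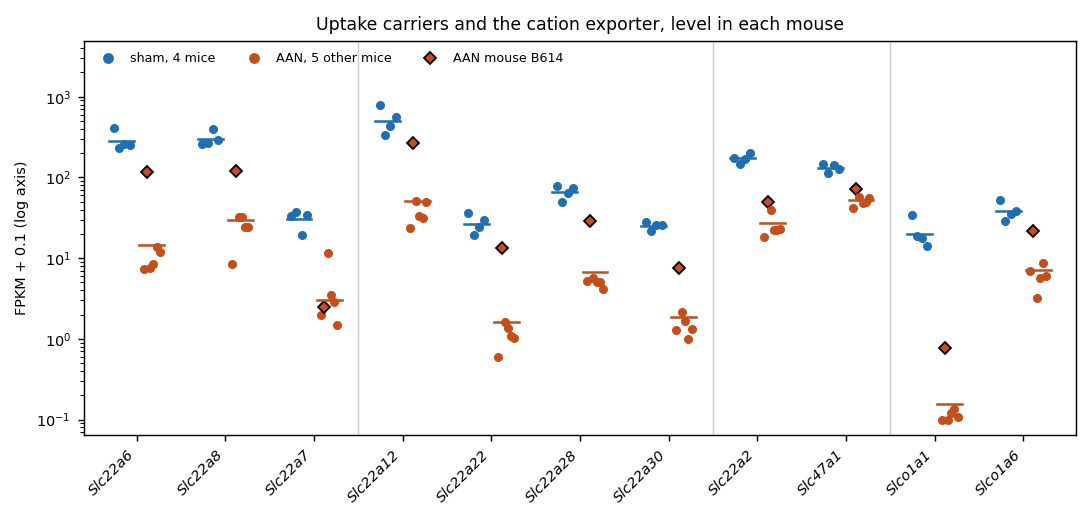
Level of 11 carriers in each mouse, as FPKM + 0.1 on a log axis, with sham mice in blue, AAN mice in orange, AAN mouse B614 as an outlined diamond and bars at the mean of the log values. The groups are apart for all 11 carriers, and B614 is the highest AAN mouse for all of them but Slc22a7.

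Among the cation carriers, Slc22a2, the uptake carrier for creatinine and metformin, was at 175, 148, 171 and 202 FPKM in sham mice and at 18.4, 22.6 and 49.1 FPKM (lowest, median and highest) in AAN mice. The groups did not overlap, and the log2 fold change was -2.66 ± 0.27 (adjusted p = 6.26e-06). Slc47a1, the exporter that acts with it, was at 145, 112, 142 and 129 FPKM in sham mice and at 41.6, 51.9 and 71.3 FPKM in AAN mice (log2 fold change -1.31 ± 0.17, adjusted p = 5.02e-05), with no overlap. Oct3 (Slc22a3) and Mate2 (Slc47a2) were below the filter, at 0 to 0.198 and 0 to 0.280 FPKM.

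The unequal change of the cation carriers was tested within each mouse, by exact permutation of the group labels (210 arrangements, two-sided). The difference Slc47a1 minus Slc22a2, on log2(FPKM + 0.1), was -0.65 to -0.26 in the sham group and 0.54 to 1.26 in AAN mice, a change of 1.35 ± 0.16 (SE, exact permutation p = 0.00476, the smallest possible, and 0.00952 after Benjamini-Hochberg adjustment over the 6 pairs). So the exporter outweighed the uptake carrier in 6 of 6 AAN mice and in 0 of 4 sham mice.

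Among the carnitine and related carriers, 1 of 3 was higher and 0 were lower on the deposited scale, where 35.8% of all genes tested were higher. With median of ratios 0 were higher and 2 lower, and with quantile normalization 0 and 1. Octn2 (Slc22a5), the carnitine carrier, was at 29.8 to 69.4 FPKM in sham mice and at 13.9 to 56.1 FPKM in AAN mice (log2 fold change -0.86 ± 0.36, adjusted p = 0.0577). The highest AAN value was B614, and without it the log2 fold change was -1.10 with an adjusted p of 0.00597. It also passed as lower without sham mouse B634 (-1.05), with median of ratios (-1.62, adjusted p = 0.00173) and with quantile normalization (-1.17, adjusted p = 0.0166). Octn1 (Slc22a4) was at 4.65 to 12.5 and 4.25 to 10.49 FPKM (log2 fold change -0.26 ± 0.29, adjusted p = 0.439), and it passed as lower with median of ratios (-1.02, adjusted p = 0.00581). Octn3 (Slc22a21), their neighbour on chromosome 11, was at 0.254, 0.341, 0.856 and 0.410 FPKM in sham mice and at 0.812, 1.55 and 2.55 FPKM in AAN mice (log2 fold change 1.63 ± 0.35, adjusted p = 0.00176). Its call was lost under both scalings (0.97 and 0.42) and with a pseudocount of 1 (0.82). The groups overlapped, as AAN mouse B614 (0.812 FPKM) lay below sham mouse B636 (0.856 FPKM). Of the windows of Slc22a21, 10.6% occur in another gene, mostly Slc22a5.

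Outside these roles, Slc22a18 and Slc22a15 passed the limits in opposite directions, and both were chosen for naming because they passed. Slc22a18, an imprinted gene, fell from 242, 202, 217 and 235 FPKM in sham mice to 33.7, 42.7 and 93.5 FPKM in AAN mice (log2 fold change -2.27 ± 0.25, adjusted p = 1.40e-05). Slc22a15 rose from 0.0562 to 0.115 FPKM in sham mice to 0.504 to 1.01 FPKM in the AAN group (log2 fold change 2.19 ± 0.22, adjusted p = 6.14e-06), and it stayed under 2-fold with quantile normalization (0.92) and a pseudocount of 1 (0.66).

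The organic anion transporting polypeptides (OATPs, Slco) split. Slco1a1, an anion and steroid conjugate carrier of mouse kidney and liver, was at 33.8, 18.9, 17.8 and 14 FPKM in sham mice. In AAN mice it was listed at 0 in A483 and B630 and at 0.0196, 0.0333 and 0.00806 FPKM in B639, B642 and B666, which is below the 0.0425 FPKM that 3 fragments would give in the shallowest library, and at 0.661 FPKM in B614. Its log2 fold change of -7.03 ± 0.53 (adjusted p = 6.93e-07) was the lowest among the 48 members, and its size moved with the pseudocount, from -4.26 with 1 to -9.20 with 0.01. Slco1a6, its neighbour on chromosome 6, was at 52.5, 28.7, 34.6 and 38.8 FPKM in sham mice and at 3.09, 6.37 and 21.6 FPKM in AAN mice (log2 fold change -2.39 ± 0.42, adjusted p = 0.000441). B614 was again the highest AAN mouse for both.

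Of the 8 tested OATPs, 3 rose, with no overlap between the groups, while 35.8% of all genes tested were higher. The prostaglandin transporter Slco2a1 was at 1.44, 0.965, 0.957 and 1.47 FPKM in sham mice and at 4.70, 5.40 and 8.86 FPKM in AAN mice (log2 fold change 2.18 ± 0.21, adjusted p = 4.88e-06). Slco2b1, a broad steroid sulfate carrier, was at 1.20, 1.53, 1.02 and 1.3 FPKM in sham mice and at 4.2, 5.88 and 8.38 FPKM in AAN mice (log2 fold change 2.16 ± 0.20, adjusted p = 2.90e-06). Slco4a1, a thyroid hormone carrier, was at 0.849 to 1.18 FPKM in sham mice and at 2.45, 4.65 and 6.87 FPKM in AAN mice (log2 fold change 1.92 ± 0.27, adjusted p = 8.21e-05). For each of the 3, B614 was the AAN mouse nearest to the sham mice. Slco3a1 (9.59 to 17.7 and 8.46 to 10.9 FPKM, adjusted p = 0.0466) changed by less than 2-fold, with a log2 fold change of -0.46 ± 0.18 that was -1.22 with median of ratios and -1.04 with quantile normalization, and Slco4c1 did not pass (0.22 ± 0.49, adjusted p = 0.712).

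The pumps of conjugates among the Abcc (Mrp) genes had 4 of 7 tested members higher and 0 lower on the deposited scale. Over all genes tested, 35.8% were higher and 3.43% lower on that scale. With median of ratios and with quantile normalization alike, 1 of the 7 (Abcc3) was higher and 2 (Abcc2 and Abcc6) were lower. The channel regulator Abcc9, also tested, is not among the 7 and did not pass the limits on the deposited scale. Mrp3 (Abcc3), a basolateral pump of glucuronides and bile acids, was at 0.273, 0.0690, 0.216 and 0.249 FPKM in sham mice and at 2.35, 2.62 and 3.65 FPKM in AAN mice. The log2 fold change was 3.35 ± 0.25 (adjusted p = 5.85e-07), next to the 3.32 ± 0.23 of Abcg3 at the top of the 48 members. The order of these 2 genes depended on the scale, with Abcg3 first at a pseudocount of 0.01 (4.19 and 3.91) and with median of ratios (2.80 and 2.77). Mrp1 (Abcc1), which expels glutathione conjugates, was at 1.25, 0.662, 0.745 and 0.943 FPKM in sham mice and at 2.60, 2.99 and 3.46 FPKM in AAN mice (log2 fold change 1.65 ± 0.19, adjusted p = 1.65e-05). These groups did not overlap. Mrp4 (Abcc4), the apical pump that carries anions and cyclic nucleotides into urine, was at 8.83, 3.65, 4.04 and 6.31 FPKM in sham mice and at 8.43, 15.9 and 22.7 FPKM in AAN mice (log2 fold change 1.46 ± 0.31, adjusted p = 0.00172). Here AAN mouse B630 (8.43 FPKM) lay just below sham mouse B607, and B614 was the highest of the 10 mice. Abcc5 (Mrp5), named because it passed, was at 2.26 to 2.80 FPKM in sham mice and at 4.01 to 9.02 FPKM in AAN mice (log2 fold change 1.26 ± 0.22, adjusted p = 0.00036). Abcc1, Abcc4 and Abcc5, unlike Abcc3, stayed under 2-fold with median of ratios (log2 fold changes 0.94, 0.70 and 0.52) and with quantile normalization (0.58, 0.82 and 0.44).

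Mrp2 (Abcc2), the apical pump of conjugates, did not pass the limits on the deposited scale. It was at 33.7, 13.4, 21.5 and 18.1 FPKM in sham mice and at 9.85, 12.2 and 28.3 FPKM in AAN mice, with the groups overlapping (log2 fold change -0.56 ± 0.32, 95% interval -1.26 to 0.13, adjusted p = 0.141). It passed as lower with median of ratios (-1.32, adjusted p = 0.00251) and with quantile normalization (-1.03, adjusted p = 0.0158). Within each mouse, Abcc4 minus Abcc2 was -2.39 to -1.51 in the sham group and -0.34 to 0.48 in AAN mice, a change of 2.02 ± 0.23 (exact permutation p = 0.00476, adjusted 0.00952). Abcc3 minus Abcc2 was -6.50 to -5.71 in the sham group and -3.39 to -1.57 in AAN mice, a change of 3.92 ± 0.31 (exact permutation p = 0.00476, adjusted 0.00952). The groups did not overlap for either difference, whereas Abcc2 still had a higher level than Abcc3 in every mouse. The summed FPKM of the 8 conjugate pumps was 22.7 to 49.7 in the sham group and 34.3 to 63.9 in the AAN group, so these ranges overlapped, against the 538 to 703 and 17.3 to 239 FPKM of the basolateral anion carriers.

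Promoters of Abcc4 and Abcc2 are shown as a pair of apical pumps that differed in change and both carry the core of the antioxidant response element, TGACNNNGC, to which NRF2 is known to bind. The 250 bases before the RefSeq start (GRCm38.p6) are chr14:118706220-118706469 on the minus strand for Abcc4, where the match lies on the opposite strand of the printed one, and chr19:43782058-43782307 on the plus strand for Abcc2. Capitals mark the match.
Abcc4: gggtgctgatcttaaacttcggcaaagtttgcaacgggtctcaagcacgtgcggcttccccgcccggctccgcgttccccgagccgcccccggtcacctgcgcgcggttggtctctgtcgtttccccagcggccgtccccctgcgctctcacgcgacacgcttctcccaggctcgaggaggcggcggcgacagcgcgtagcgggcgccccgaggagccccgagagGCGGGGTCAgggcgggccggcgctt
Abcc2: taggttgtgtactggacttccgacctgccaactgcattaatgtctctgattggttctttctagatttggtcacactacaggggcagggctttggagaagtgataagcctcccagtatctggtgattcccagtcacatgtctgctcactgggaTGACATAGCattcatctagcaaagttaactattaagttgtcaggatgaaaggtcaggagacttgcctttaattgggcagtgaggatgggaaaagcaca
The matches begin 25 and 98 bases before the RefSeq start. In the GENCODE M21 annotation Abcc2 begins at chr19:43782192, so by that start its match lies within the gene. A second RefSeq start of Abcc4 has a match 23 bases before it. The core was in 1 of 7 higher members with a promoter (14.3%), 0 of 11 lower members, 3 of 18 other tested members (16.7%) and 11.5% of all genes. Besides Abcc4 and Abcc2, it was in Abcc10, Slco4c1 and the untested Slc22a27. RefSeq promoters were matched for 48 of the 63 members, but not for the higher members Abcc1, Abcc3, Abcg1 and Slc22a21. Sites of HNF4, searched as CAAAGTCCA and CAAAGGTCA on both strands, were in 0 of 48 members and in 0.451% and 0.485% of all genes. Matches this rare would seldom occur in 48 genes, so the 0 cannot show that the members lack them. These are matches of letters and not measured sites.

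**Figure D3:**
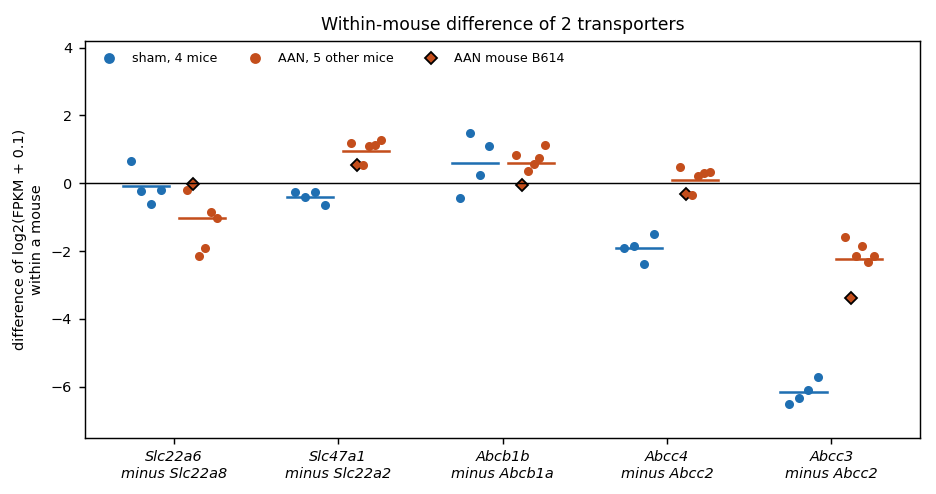
Difference of log2(FPKM + 0.1) between 2 transporters within each mouse, for 5 pairs, with sham mice in blue, AAN mice in orange, B614 as an outlined diamond and bars at the means. The groups are apart for Slc47a1 minus Slc22a2, Abcc4 minus Abcc2 and Abcc3 minus Abcc2, and they overlap for the other 2 pairs.

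P-glycoprotein, the broad efflux pump of lipophilic drugs, has 2 genes in the mouse and neither passed the limits. Abcb1a was at 0.676, 0.09, 0.251 and 0.346 FPKM in sham mice and at 0.437, 0.555 and 0.972 FPKM in AAN mice (log2 fold change 0.82 ± 0.35, adjusted p = 0.0626). Abcb1b was at 0.473, 0.427, 0.313 and 0.858 FPKM in sham mice and at 0.701, 0.920 and 1.37 FPKM in AAN mice (log2 fold change 0.83 ± 0.26, adjusted p = 0.0148), under 2-fold. Both changes were near the median of all genes (0.75), and both were negative with quantile normalization (-0.44 and -0.42). Without sham mouse B607 Abcb1a passed as higher (1.15), as did Abcb1b without sham mouse H249 (1.06) and with B tags alone (1.07). The difference between the 2 genes changed by 0.01 ± 0.46 (exact permutation p = 0.971, adjusted 0.971), and its sign depended on the mice included. Sequence is shared here too (9.23% of Abcb1a windows and 6.04% of Abcb1b windows). Of the 5 Abcb genes of mitochondria and other organelles, 0 passed the limits, with log2 fold changes from -0.40 to 0.47, and under both scalings Abcb6 and Abcb8 were lower.

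Among the 3 tested Abcg genes, 2 rose, while 35.8% of all genes tested were higher. Abcg1, which exports cholesterol to HDL and is abundant in macrophages, was at 1.26, 0.781, 0.723 and 0.982 FPKM in sham mice and at 5.38, 7.46 and 9.01 FPKM in AAN mice (log2 fold change 2.83 ± 0.21, adjusted p = 5.31e-07). Abcg3, a rodent relative of Abcg2, was at 0.187, 0.0794, 0.0611 and 0.0763 FPKM in sham mice and at 1.38, 2.03 and 2.22 FPKM in AAN mice (log2 fold change 3.32 ± 0.23, adjusted p = 4.23e-07). For both, B614 was the lowest AAN mouse, as it was for the macrophage genes Csf1r, Cd68 and C1qa but not for Adgre1 (22.3 FPKM, the highest of the 6), and the part of macrophages in these changes was not tested. Bcrp (Abcg2), the apical pump of urate and drugs, was at 42.9, 29.2, 33.4 and 36.4 FPKM in sham mice and at 13, 19.4 and 28.8 FPKM in AAN mice. The groups did not overlap, the log2 fold change was -0.89 ± 0.22 (adjusted p = 0.00475), under 2-fold, and it passed as lower without B614 (-1.01), with median of ratios (-1.65) and with quantile normalization (-1.25).

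**Figure D4:**
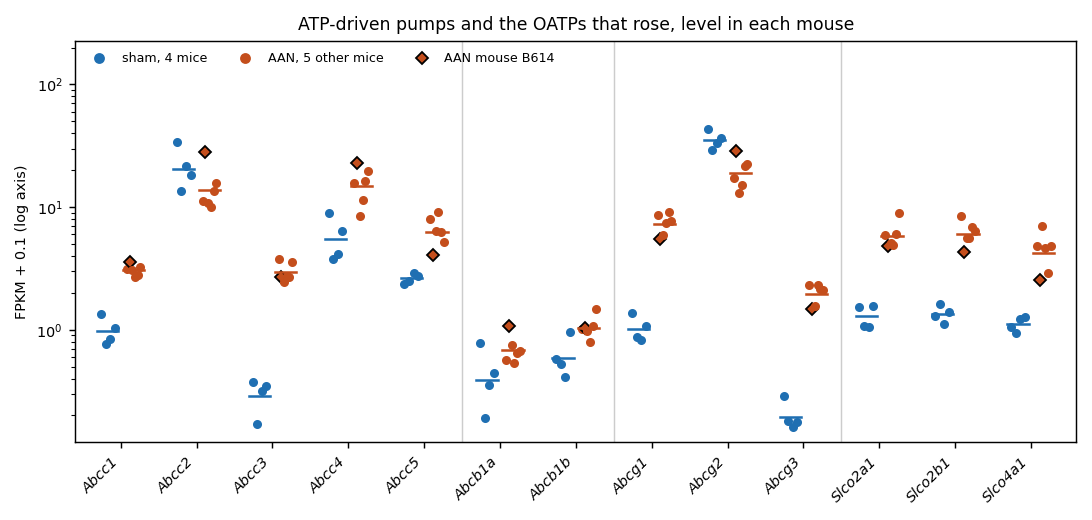
Level of 10 ATP-driven pumps and 3 OATPs in each mouse, as FPKM + 0.1 on a log axis, with sham mice in blue, AAN mice in orange, AAN mouse B614 as an outlined diamond and bars at the mean of the log values. Abcc3, Abcg1 and Abcg3 lie well apart between the groups, while Abcc2, Abcb1a and Abcb1b overlap and Abcg2 is lower in AAN mice.

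Proximal tubule genes fell in AAN, so each member was also tested relative to the proximal tubule list, as the log2 value minus the mean log2 value of the 10 listed genes in the same mouse. That mean was 1.51 lower in AAN mice on the log2 scale. The list was uneven, with log2 fold changes from -2.83 (Miox) to -0.60 (Slc5a2), and 6 of its 10 genes were lower. Relative to the list, 91.2% of all genes were higher and 0.455% were lower, and the median of all genes was 2.26. Of the 48 members, 27 were higher and 9 were lower. The 9 were Slco1a1 (-5.52 ± 0.40), Slc22a6 (-2.77 ± 0.43), Slc22a22 (-2.52 ± 0.47), Slc22a30 (-2.23 ± 0.37), Slc22a8 (-1.84 ± 0.45), Slc22a12 (-1.80 ± 0.38), Slc22a7 (-1.79 ± 0.58), Slc22a28 (-1.79 ± 0.32) and Slc22a2 (-1.15 ± 0.33), with adjusted p from 5.41e-08 to 0.00852. Hence these carriers had fallen by more than the mean of the list, as had Miox of the list itself (-1.32 ± 0.34). By contrast, Slc47a1 (0.21 ± 0.32, adjusted p = 0.532) was not distinguishable from the list, and Slc22a18 and Slco1a6 (-0.76 ± 0.29 and -0.88 ± 0.29, adjusted p = 0.0221 and 0.00987) were below it by less than 2-fold. The same 9 genes were lower with each mouse left out in turn, with pseudocounts of 1 and 0.01, and when the list was cut to the endocytic receptors Lrp2 and Cubn.

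**Figure D5:**
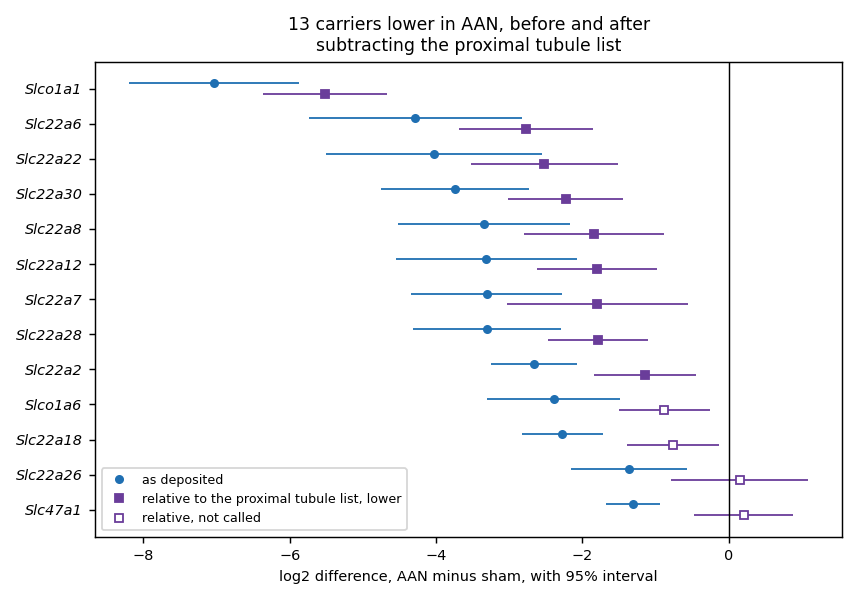
Log2 difference (AAN minus sham, horizontal axis, with 95% intervals) of 13 lower carriers as deposited (blue circles) and relative to the proximal tubule list (purple squares, open where the limits were not passed). The upper 9 carriers keep intervals below 0 and pass the limits on both scales, and the lower 4 do not pass relative to the list.

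Mouse B614 took different places among the lower and the higher members. It was the highest of the 6 AAN mice for 12 of the 14 lower members and the lowest for 8 of the 11 higher members. Over all genes tested it was the highest AAN mouse for 25.6% and the lowest for 33.4%, shares that were not split by the direction of change. It was also the highest for 13 of the 23 tested members that did not pass the limits (56.5%), and the lowest for 2. On log2(FPKM + 0.1) it lay 2.08 above the median of the other 5 AAN mice for the median lower member, and up to 3.78 above. Without B614, 11 members were higher, the same 11, and 16 were lower, the same 14 with Slc22a5 and Abcg2.

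Genes that work with these transporters were read from a list of 24. Of the 23 tested, 8 were lower and 3 were higher, against 3.43% and 35.8% of all genes tested. The carrier Slc13a3, which supplies the dicarboxylates that Slc22a6 and Slc22a8 exchange, was lower (log2 fold change -2.84 ± 0.53, adjusted p = 0.000714), whereas its apical relative Slc13a2 was at -0.41 ± 0.27 (adjusted p = 0.200). Apical anion carriers Slc17a1 (-1.98 ± 0.32, adjusted p = 0.000252) and Slc17a3 (-2.38 ± 0.46, adjusted p = 0.00091) and the monocarboxylate carrier Slc5a8 (-2.12 ± 0.46, adjusted p = 0.0019) were lower, as were Slc51b, Slc16a9 and the scaffold Pdzk1 (-1.31 to -1.07). Of the regulators, Hnf4a was lower (-1.15 ± 0.27, adjusted p = 0.00318). The xenobiotic sensor Ahr (1.91 ± 0.21, adjusted p = 1.00e-05) and Nfe2l2, which encodes NRF2 (1.06 ± 0.29, adjusted p = 0.0081), were higher on the deposited scale. So was the chloride channel Cftr, an Abcc relative (1.25 ± 0.40, adjusted p = 0.0165). Nfe2l2 and Cftr lay nearer than Ahr to the median of all genes (0.75), and their values under rescaling are not reported here. The pregnane X receptor Nr1i2 changed by less than 2-fold (0.87 ± 0.19, adjusted p = 0.00228).

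The 15 members below the filter reached 0.280 FPKM at most. In 7 of them no mouse was above the level of 3 fragments in the shallowest library. With no filter 0 of the 15 passed the limits, but the 0.1 FPKM added to each value shrinks changes this close to 0. So this count cannot show that they did not change. Slco5a1 was at 0 to 0.00215 FPKM in sham mice and at 0.0528 to 0.112 FPKM in AAN mice, where its level of 3 fragments was 0.0171 FPKM. Slco1a5 and Slco1c1 were listed at 0 in 4 of 4 sham mice and reached 0.179 and 0.0297 FPKM in AAN mice.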

How the data were processed

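RNA of the kidney cortex of 4 sham and 6 AAN mice was sequenced as paired-end TruSeq libraries on the HiSeq Xten. Per the methods and the labels, the authors mapped cleaned reads to GRCm38 (mm10 in the labels) with HISAT2 and computed the deposited FPKM per known gene with StringTie. Their own test works on counts, so limma was used here. The annotation release, the sharing of fragments between genes and the use of strand are not given in the sources used here.

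Symbols and positions came from GENCODE M21 (GRCm38). Depth was recovered from the step of 1 fragment in genes with 1 transcript, where 94.9% to 96.8% of low values were whole within 0.05. Levels of 3 fragments use the whole exonic length and cover counting error only. Of the members, 15 overlap another gene of the files, such as Slc22a12 (Nrxn2) and Abcg3 (Gm43856), and are uncertain to that extent. FPKM are per length, so levels of genes may be compared. Limma 3.58.1 in R 4.3.3 (lmFit, eBayes with trend and robust, two-sided) was run on log2(FPKM + 0.1) for genes averaging 0.1 FPKM or more, with Benjamini-Hochberg adjustment over all 17129. Members were called at a change of 2-fold or more with an adjusted p not above 0.05, as in the methods. Such fold changes understate those of low genes. Errors of fold changes are SE with n = 4 and 6. Differences of 2 members in a mouse were tested over all splits with Python 3.11.15. The fit and this test were checked on simulated data. Motifs were searched on both strands of RefSeq promoters.

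The members, roles and lists were chosen with earlier results of these data known. Named were 24 drug carriers and, among members past the limits with at least 1 FPKM in the higher group, the 8 that rose most and the 8 that fell most. Some members, listed genes, pairs and motifs are not reported here. All other members named were chosen after their values were seen. The alternatives were pseudocounts of 1 and 0.01, no filter, a mean of at least 1 FPKM, median of ratios, quantile normalization, limma without trend and robust, no fold limit, each mouse left out and B tags alone.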

Additional observations from a re-analysis of the deposited data

Results flagged for a closer look

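In 57 groups of values of the 29 named members, 15 groups held a mouse far from the rest by Dixon's criterion at 95%, where chance gives about 1 in 20 (2.85 groups). That figure holds for independent groups with a normal spread. These groups come from the same 10 mice, the values were FPKM without logs, and all 15 flagged values were high. So the 2.85 is a rough guide only. AAN mouse B614 accounted for 10 of the 15. Its high values were 117 FPKM for Slc22a6, 120.0 FPKM for Slc22a8, 270.0 FPKM for Slc22a12, 13.1 FPKM for Slc22a22, 28.5 FPKM for Slc22a28, 7.54 FPKM for Slc22a30, 10.49 FPKM for Slc22a4, 0.661 FPKM for Slco1a1, 21.6 FPKM for Slco1a6 and 28.3 FPKM for Abcc2. The same mouse had the highest proximal tubule sum and the lowest macrophage sum of the AAN mice, and their part in these values was not tested.

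AAN mouse B630 was high for Slc22a7 (11.4 FPKM, with 1.37 to 3.35 FPKM in the other 5) and Slco4c1 (2.31 FPKM, with 0.571 to 1.11 FPKM in the other 5). AAN mouse B666 was high for Slco2a1 (8.86 FPKM, with 4.70 to 5.96 FPKM in the other 5). Sham mouse B607 was high for Slc22a6 (409 FPKM, with 229.8 to 259.5 FPKM in the other 3) and Abcg3 (0.187 FPKM, with 0.0611 to 0.0794 FPKM in the other 3).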

How the results depend on the processing

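Among the counts of members, rescaling moved the result, with 7 higher and 27 lower by median of ratios and 5 higher and 26 lower by quantile normalization, in place of 11 and 14. With each mouse left out, 11 to 13 were higher and 12 to 16 lower, and relative to the proximal tubule list 23 to 28 were higher and 9 lower. Of the 20 members past the limits that the naming rule took (Abcc5, Slc22a15 and Slc22a26 are not among them and also lost calls), 16 kept their call and direction under every alternative, and the exceptions were Abcc1, Abcc4, Slc22a21 and Slco4a1. Slco4a1 stayed under 2-fold with quantile normalization alone (0.90), and Slc22a21 with that (0.42), median of ratios (0.97) and a pseudocount of 1 (0.82). Changes of sign were seen in Abcb1a (-0.44) and Abcb1b (-0.42) with quantile normalization and in Slco4c1 with median of ratios (-0.46), quantile normalization (-0.93) and the mice left out in turn (-0.14 to 0.77). The difference Abcb1b minus Abcb1a was -0.13 with a pseudocount of 0.01 and -0.33 to 0.30 with each mouse left out, so its sign is not set by these data. No paired analysis was possible because the groups share no replicate tag. The depth of each library limits members near 0, the groups hold 4 and 6 mice, and the causes of these moves were not tested.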

Other observations

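Slc22a13, Slc22a19 and Slco4c1, highest in H249 among sham mice and in B630 among AAN mice, shared that order with genes outside the transporters that were picked after the values were seen. Cyp7b1, a sterol hydroxylase, was at 23.2 FPKM in H249 (3.93 to 8.86 FPKM in the other sham mice) and at 11.8 FPKM in B630 (5.15 to 7.48 FPKM in the other AAN mice). Mep1b, a brush border protease, was at 61.2 FPKM in H249 (16.9 to 27.5 FPKM) and at 27.5 FPKM in B630 (3.46 to 12 FPKM), and the protease gene Napsa was likewise highest in these mice (696 and 340.2 FPKM). In contrast, Slc7a13, a cystine carrier of the same tubule, was higher in B607 (229 FPKM) than in H249 (189 FPKM) and highest in B614 (11.4 FPKM) among AAN mice. The source of this variation was not tested.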
